A study of Mus musculus with 6 samples.

Results

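The replication-dependent histone genes of mouse were taken from a table of 21878 genes as every row named Hist1h, Hist2h, Hist3h or Hist4h, which gave 67 genes: 6 of linker histone H1, 18 of H2A, 18 of H2B, 12 of H3 and 13 of H4. RNA came from soft tissue at the Achilles tendon of 6 mouse libraries, in a study of bone formation in soft tissue after injury. A group of 3 libraries was labelled as sham operated (sham 1 to 3) and a group of 3 as having the Achilles tendon amputated (cut 1 to 3). The labels give no genotype, strain, age, sex or time after surgery, and nothing says that the libraries came from separate animals. The p-values here therefore judge a difference against the spread between these libraries, which may be technical. Ribosomal RNA was removed and first-strand cDNA was primed with random hexamers, so a transcript did not need a poly(A) tail to be sequenced.

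Histones package DNA: H2A, H2B, H3 and H4 form the core of the nucleosome, and H1 binds the DNA between cores. Genes of the replication-dependent set are transcribed in S phase, when new DNA needs new nucleosomes. Their mRNAs mostly end in a conserved stem-loop in place of a poly(A) tail, and the stem-loop binding protein SLBP takes part in making, translating and degrading them. Most lie in gene clusters, lack introns and exist in many near-identical copies.

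Stem-loops are shown because they are the shared 3′ signal of these mRNAs and set the H4 members apart from the other classes. A search of GENCODE vM21 transcripts for 16 bases with a stem of 6 perfect pairs around a loop of 4 bases, allowing 4 mismatches to the commonest form, found one in 46 of 67 members. It cannot find a stem-loop past the annotated end of a transcript or one with an imperfect stem. A miss therefore does not show that the gene lacks the signal. In 34 of the 46, none of them H4, the stem began GGCTCT. In the 12 H4 members it began GGCCCT (10) or GGTCCT (2). Capitals mark the stem and lower case the loop in the forms below, read 5′ to 3′.
Hist1h1c: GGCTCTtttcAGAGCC
Hist1h1d: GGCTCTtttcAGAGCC
Hist1h3b: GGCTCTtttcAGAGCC
Hist1h3c: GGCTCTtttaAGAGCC
Hist1h3g: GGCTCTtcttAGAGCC
Hist2h2ac: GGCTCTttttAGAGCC
Hist1h4b: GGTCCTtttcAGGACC
Hist1h4f: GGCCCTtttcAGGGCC
Hist2h4: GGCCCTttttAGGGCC
Hist1h1c and Hist1h1d carry the same 16 bases, and so does Hist1h3b, while their changes after the cut, given below, ran from 0.33 to 3.23 on the log2 scale.

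Promoters are shown for 2 pairs of genes that share a class motif and differ in their change. RefSeq windows of 300 bases (GRCm38.p6, 250 before to 50 after the start) were matched for 62 of 67 members, and each motif was searched on both strands. The octamer ATTTGCAT, the site of OCT1 in H2B promoters, was found in 14 of 62 members, 7 of them H2A and 7 H2B, against 1.735% of all 32851 windows. TATAAA was found in 35 of 62 (13.616% of all windows), and CCAAT in 53 of 62 (37.408%), with 9 of the 12 H4 members lacking it and no other class. AAACACA, the H1 box, was found in 9 of 62 (7.184%), among them 5 of 6 H1 genes. The 150 bases before each start follow, on the gene's strand, with these motifs, or their reverse complements, in capitals.
Hist1h1b, chr13:21780626-21780775, minus strand: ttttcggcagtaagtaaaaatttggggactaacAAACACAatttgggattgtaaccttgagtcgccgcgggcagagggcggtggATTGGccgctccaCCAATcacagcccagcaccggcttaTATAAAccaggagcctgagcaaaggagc
Hist1h1c, chr13:23738657-23738806, plus strand: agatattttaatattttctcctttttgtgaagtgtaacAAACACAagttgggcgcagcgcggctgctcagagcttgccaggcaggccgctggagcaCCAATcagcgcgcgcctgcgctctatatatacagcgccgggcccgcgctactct
Hist1h2bk, chr13:22035671-22035820, plus strand: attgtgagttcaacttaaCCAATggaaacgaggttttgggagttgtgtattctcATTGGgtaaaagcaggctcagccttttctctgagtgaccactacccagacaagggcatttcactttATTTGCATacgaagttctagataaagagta
Hist1h2be, chr13:23585971-23586120, minus strand: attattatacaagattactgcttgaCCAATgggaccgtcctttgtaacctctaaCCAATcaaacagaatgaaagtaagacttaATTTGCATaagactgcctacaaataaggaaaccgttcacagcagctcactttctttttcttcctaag
Hist1h1b and Hist1h1c share the H1 box and CCAAT. Hist1h2bk and Hist1h2be share the octamer and CCAAT. Both pairs differ in TATAAA, found in the windows of Hist1h1b and Hist1h2bk and not in those of Hist1h1c and Hist1h2be. For Hist1h2bk it lies outside the 150 bases shown. The part of TATAAA in the changes was not tested. Hist1h1b and Hist1h2bk rose several-fold after the cut, and Hist1h1c and Hist1h2be did not pass the test. Hist1h2be has another annotated start, whose window holds CCAAT and no octamer.

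Histone cluster transcripts were more abundant in cut tendon than in sham. Summed over all 67 members they stood at 200.9, 219.7 and 225.7 CPM (counts divided by the scaled library total) in the sham libraries, numbers 1 to 3 in order here and throughout, and at 335.2, 452.8 and 376.7 CPM in the cut libraries, a ratio of means of 1.80. Every cut library lay above every sham library. Of 67 members 50 passed edgeR's filter on low counts and were tested, and 17 did not, 2 of them with no count. By edgeR's quasi-likelihood test, adjusted over all 14561 genes tested (adjusted p under 0.05), 38 of the 50 were higher and 0 lower, where 20.4% of all tested genes were higher and 12.3% lower. At an unadjusted p under 0.05, 40 were higher and 0 lower. DESeq2, with a filter of its own, tested 59 members and called 40 higher (21.7% of all genes it tested) and 0 lower. It added Hist1h2ae and Hist1h2ah to the 38. The edgeR test with no filter covered 65 members and called 37 higher (15.3% of all genes tested so), adding Hist1h2ah and not calling Hist2h2ac and Hist2h3b. The median log2 fold change of the tested members was 2.17, beside -0.02 over all tested genes. Of the 50, 27 were called at 4-fold or more, where 4.49% of all tested genes were. The cut libraries lay wholly above sham for 40 of the 50, beside 28.7% of all tested genes. A gene had to be abundant enough in at least 1 group to pass the filter, so these counts, and those by class below, do not describe all 67.

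**Figure D1:**
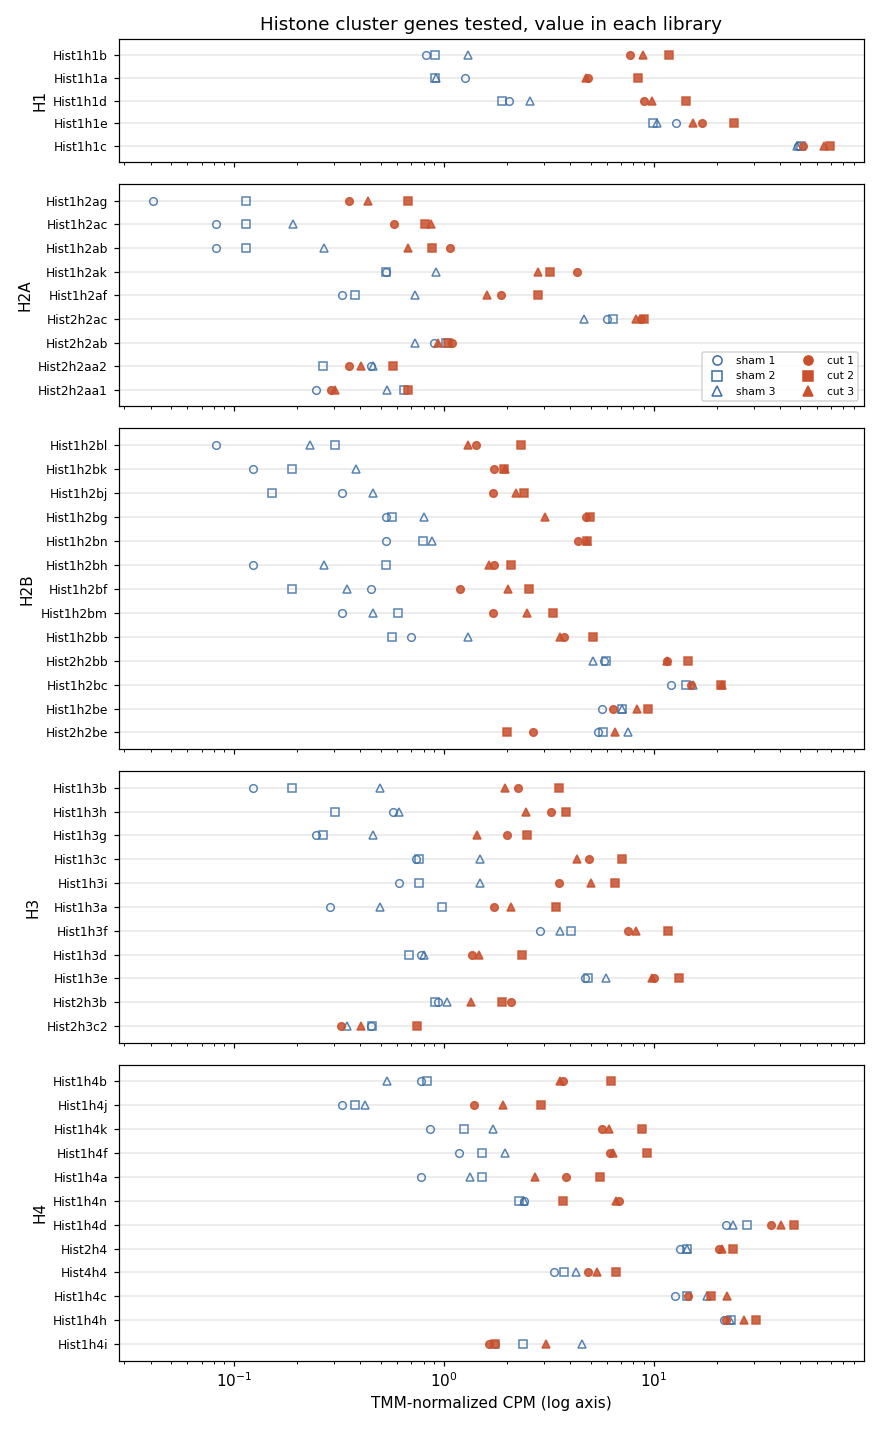
TMM-normalized CPM on a log axis (x) of the 50 tested histone cluster genes (y, by class and in order of change), with a symbol for each library, open for sham and filled for cut. Cut libraries lie wholly above sham for 40 of the genes; the value of 0 of Hist1h2ag in sham 3 cannot be drawn.

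Among cut libraries, cut 2 was the highest for 38 of the 50 tested members, cut 3 for 7 and cut 1 for 5. The same order was not counted over all tested genes, so it is not known to be particular to the members. The median tested member stood 1.64, 2.16 and 1.73 above its sham mean in cut 1, 2 and 3, on the scale of log2(CPM + 0.1). The 30 skeletal muscle genes took 20.4%, 19.9% and 22.1% of the library in sham, against 1.71% (cut 1), 0.557% (cut 2) and 16.3% (cut 3). The edgeR test called 0 of the 30 in either direction (0 higher and 4 lower at an unadjusted p under 0.05, 12 lower by DESeq2). With the muscle level as a covariate, 27 of the 38 members remained called and the median was 1.80. The 11 not called were Hist1h1e, Hist1h2ab, Hist1h2af, Hist1h2ag, Hist1h3a, Hist1h3d, Hist1h4a, Hist1h4d, Hist2h2ac, Hist2h3b and Hist2h4. Over all 14561 genes tested, the fit with the covariate called 1582 higher, beside 2968 without it. The part of muscle tissue in the histone values was not tested beyond this fit.

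The 5 tested linker histone H1 genes changed unequally, and the 3 of them lowest in sham rose most. Hist1h1b stood at 0.817, 0.909 and 1.30 CPM in sham and 7.74, 11.8 and 8.93 CPM in cut, a log2 fold change of 3.23 ± 0.27 (SE, 3 libraries a group; edgeR adjusted p = 0.0031). Hist1h1a stood at 1.27, 0.909 and 0.916 CPM in sham and 4.83, 8.44 and 4.73 in cut (2.54 ± 0.32, adjusted p = 0.0051). Hist1h1d stood at 2.04, 1.89 and 2.56 CPM in sham and 8.99, 14.2 and 9.76 in cut (2.34 ± 0.25, adjusted p = 0.0039). For these 3 genes the lowest cut library was above 3 times the highest sham library. Hist1h1e stood at 12.8, 9.96 and 10.3 CPM in sham and 17.1, 24.1 and 15.4 in cut (0.77 ± 0.21, adjusted p = 0.034). Its groups did not overlap, but its call was lost without sham 1, 2 or 3, or cut 1 or 2 (log2 0.56 to 0.89, adjusted p 0.061 to 0.125), and with the muscle covariate (0.39, adjusted p = 0.255). Exons of Hist1h1e overlap an annotated Hist1h2be transcript on the same strand, so reads may have been split between them. Hist1h1c, the H1 gene with the highest level, stood at 48.9, 50.5 and 48.0 CPM in sham and 51.6, 68.8 and 64.6 in cut. Its cut libraries lay just above sham and the difference of 0.33 ± 0.14 did not pass the test (adjusted p = 0.109). Hist1h1t, the H1 gene of testis, had 2, 0 and 1 counts in sham and 8, 0 and 2 in cut. It was the lowest H1 gene in sham, its groups overlapped and it was not tested.

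The H1 pool differed in make-up as well as in size. Its total went from 64.4 ± 1.39 to 107 ± 18.7 CPM (mean ± SD, n = 3 a group, ratio 1.66, no test). Hist1h1c held 74.2%, 78.7% and 76.0% of it in sham and 57.0%, 54.1% and 62.4% in cut. Hist1h1b went from 1.57% ± 0.43 to 8.82% ± 0.40, and Hist1h1d from 3.37% ± 0.60 to 10.2% ± 0.87. Hist1h1e kept near the same share, 17.1% ± 2.06 and 17.5% ± 2.31. Shares sum to 100%, so a gain of some members is a loss of others.

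**Figure D2:**
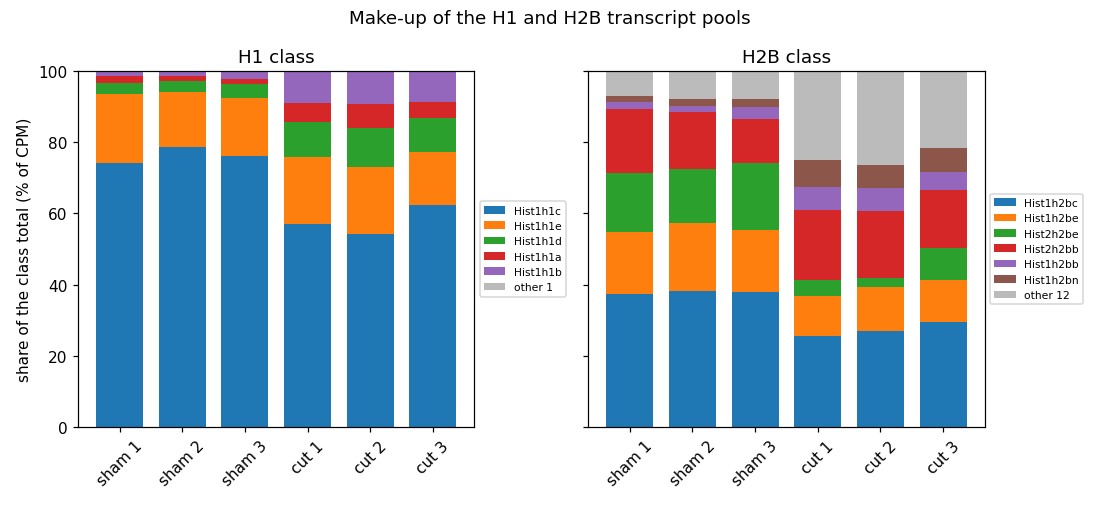
Share of the class total (y, % of CPM) held by named genes of H1 (left) and H2B (right) in each library (x), as stacked bars that sum to 100%, with all remaining members in grey. Hist1h1c holds 74.2% or more of H1 in sham and 62.4% or less in cut, and Hist1h2bc holds 37.9% of H2B in sham and 27.4% in cut on average.

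Tested H2A genes fell into a group that rose several-fold from very low levels and Hist2 genes that changed little. Of 18 members 9 were tested, 6 were higher and 0 lower, with a median log2 fold change of 2.12, and DESeq2 called 8 of 14 higher. Hist1h2ak rose from 0.531, 0.530 and 0.916 CPM in sham to 4.29, 3.21 and 2.82 in cut (2.37 ± 0.33, adjusted p = 0.0057). Hist1h2af rose from 0.327, 0.379 and 0.725 CPM to 1.87, 2.80 and 1.61 (2.12 ± 0.41, adjusted p = 0.013), a call lost without sham 2 (1.96, adjusted p = 0.062) and with the muscle covariate (1.65, adjusted p = 0.066). For both genes the groups were well apart. Hist1h2ag, with the highest fold among the 9 tested, had only 1, 3 and 0 counts in sham and 11, 20 and 13 in cut (3.13 ± 0.76, adjusted p = 0.025). That call was lost without sham 1 or 3, or cut 1 or 2 (2.54 to 3.31, adjusted p 0.056 to 0.085) and with the muscle covariate (2.79, adjusted p = 0.1003), and 76.2% of its 100-base windows occur in another gene. Hist1h2ac had 2, 3 and 5 counts in sham and 18, 24 and 26 in cut (2.50 ± 0.44, adjusted p = 0.010; without sham 2, 2.40, adjusted p = 0.054). Hist1h2ab was close to it in level and in change (2.46 ± 0.49), a call that omitting sham 1, sham 2 or cut 1 ended (2.17 to 2.29, adjusted p 0.052 to 0.069), as did the muscle covariate (2.16, adjusted p = 0.072).

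Hist2h2ac was the main H2A transcript in sham, with 61.3% ± 6.96 of the class, and held 43.7% ± 3.59 in cut. Its level was 5.96, 6.40 and 4.66 CPM in sham and 8.67, 9.01 and 8.25 in cut. The groups did not overlap and the change was small (0.61 ± 0.17, adjusted p = 0.038). It was not called without any single one of sham 1, 2 and 3 and cut 1 and 2 (0.45 to 0.68, adjusted p 0.086 to 0.122), with no filter on low counts (0.58, adjusted p = 0.052) or with the muscle covariate (0.52, adjusted p = 0.176). Hist2h2ab, on its other side, was at 0.22 ± 0.27 and not called. Hist2h2aa1 and Hist2h2aa2, whose windows are all shared with other annotated genes, had 6, 17 and 14 counts and 11, 7 and 12 counts in sham. Summed they stood at 0.865 ± 0.154 CPM in sham and 0.866 ± 0.333 in cut. Of the 9 H2A genes not tested, Hist1h2ah had no count in sham and 6, 6 and 4 in cut. Its pooled cut level was 4.54-fold a floor of 3 counts over the sham group, without the error of the cut counts. DESeq2 called Hist1h2ah higher (adjusted p = 0.016), and so did edgeR with no filter (adjusted p = 0.034). Hist1h2ae had 2, 6 and 4 counts in sham and 9, 33 and 12 in cut, called higher by DESeq2 at the edge of the threshold (1.96, adjusted p = 0.0498) and not by edgeR with no filter (1.90, adjusted p = 0.092). Hist1h2ao had none in sham and 2, 2 and 3 in cut (1.99-fold the same floor), but is a near copy of Hist1h2ap. The 2 members with no count in any library are both H2A genes, and a count of 0 allows up to 3 counts, or 0.0389 CPM over the sham group.

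Among tested H2B members those lower in sham rose and the abundant ones mostly did not pass the test. Of 18 members 13 were tested, 10 were higher and 0 lower, and the median was 2.54, the highest of any class among tested members. The 5 not tested were the lowest in sham, at 0 to 6 counts a library, and their groups overlapped, with 0 to 15 counts in cut. Hist1h2bl stood at 0.0817, 0.303 and 0.229 CPM in sham and 1.42, 2.33 and 1.31 in cut (3.0 ± 0.49, adjusted p = 0.0085). Hist1h2bk, whose promoter is shown above, stood at 0.123, 0.189 and 0.382 CPM in sham and 1.74, 1.92 and 1.95 in cut (2.98 ± 0.41, adjusted p = 0.0059). Hist1h2bn stood at 0.531, 0.795 and 0.878 CPM in sham and 4.35, 4.83 and 4.83 in cut (2.66 ± 0.25, adjusted p = 0.0033). The cut libraries of these 3 genes were high in every case, and close together for Hist1h2bk and Hist1h2bn. Hist1h2bb, the called Hist1 member of the class with the smallest change, still rose by 2.27 ± 0.36. Hist1h2bh lost its call without sham 3 (2.42, adjusted p = 0.054).

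Hist2h2bb rose less, from 5.76, 5.94 and 5.12 CPM in sham to 11.5, 14.5 and 11.5 in cut (1.16 ± 0.16, adjusted p = 0.0061). All of its windows are shared with Gm20628, annotated on the other strand. Hist1h2bc, the most abundant H2B transcript, stood at 12.1, 14.3 and 15.4 CPM in sham and 15.0, 20.8 and 21.1 in cut. The groups overlapped at their edges and the difference of 0.44 ± 0.18 did not pass the test (adjusted p = 0.101), while with the replicate number as a block it did (0.43, adjusted p = 0.043). Hist1h2be stood at 5.64, 7.04 and 7.06 CPM in sham and 6.41, 9.38 and 8.29 in cut (0.29 ± 0.20, adjusted p = 0.287). Both carry lower shares of the class total in cut than in sham, Hist1h2bc 27.4% ± 2.0 after 37.9% ± 0.47 and Hist1h2be 11.6% ± 0.59 after 17.9% ± 0.87.

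Hist2h2be was the member with the lowest fold change, at -0.74 ± 0.45 (adjusted p = 0.231). It had 5.39, 5.72 and 7.56 CPM in sham and 2.64, 1.99 and 6.51 in cut. Cut 1 and cut 2 were low, and cut 3 lay within the sham range. Muscle genes took 1.71%, 0.557% and 16.3% of these cut libraries, as given above, and their part in this value was not tested. Without cut 3 the gene was called lower (-1.42, adjusted p = 0.0022). In the fit that takes muscle level into account its value was 0.17 (adjusted p = 0.711). Its deposited length of 2667 bases is longer than that of any other member, and no stem-loop was found in its transcripts. Hist1h2ba, the H2B gene of testis, had 0, 2 and 0 counts in sham and 1, 0 and 0 in cut.

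Nearly all tested H3 members rose, and the class total had the highest ratio of the 5 classes. It went from 14.5 ± 2.22 to 44.97 ± 10.5 CPM, a ratio of 3.09, beside 1.66 for H1, 2.16 for H2A, 1.87 for H2B and 1.63 for H4 (no test). Of 12 members 11 were tested, 10 were higher and 0 lower, with a median of 2.02. Hist1h3b, at 0.123, 0.189 and 0.496 CPM in sham and 2.26, 3.54 and 1.95 in cut, had a log2 fold change of 3.23 ± 0.53 (adjusted p = 0.0085). Hist1h3h rose from 0.572, 0.303 and 0.611 CPM to 3.25, 3.81 and 2.45 (2.67 ± 0.35, adjusted p = 0.0053), and 92.0% of its windows occur in another gene. Hist1h3c rose from 0.736, 0.757 and 1.49 CPM to 4.93, 7.02 and 4.29 (2.44 ± 0.36, adjusted p = 0.0068). Sham 3 was the highest sham library for each of these 3, and still below every cut library. Hist1h3g, whose stem-loop has a loop of its own among the members, rose by 2.60 ± 0.38.

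The abundant H3 genes rose too, by less. Hist1h3e, the first in level, stood at 4.70, 4.88 and 5.92 CPM in sham and 10.02, 13.2 and 9.80 in cut (1.09 ± 0.19, adjusted p = 0.0098; without sham 2, 1.03, adjusted p = 0.053). Hist1h3f stood at 2.86, 4.01 and 3.59 CPM in sham and 7.51, 11.7 and 8.19 in cut (1.39 ± 0.24, adjusted p = 0.0097). Neither gene's groups overlapped, and no call on Hist1h3f was lost in any alternative. Hist2h3b, at 0.940, 0.909 and 1.03 CPM in sham and 2.10, 1.89 and 1.34 in cut, was called at the edge of the threshold (0.88 ± 0.27, adjusted p = 0.048). It was not called without any single one of sham 1, 2 and 3 and cut 1 and 2 (0.75 to 0.90, adjusted p 0.115 to 0.152), with the replicate block (0.86, adjusted p = 0.075), with DESeq2 size factors (0.88, adjusted p = 0.053), with no filter (0.86, adjusted p = 0.067) or with the muscle covariate (0.52, adjusted p = 0.432). Hist1h3d was likewise lost without each of those 5 libraries (0.91 to 1.35, adjusted p 0.056 to 0.115), with the block (1.16 after 1.20, adjusted p = 0.053) and with the muscle covariate (0.83, adjusted p = 0.247). Hist1h3a was lost without sham 1, sham 3, cut 1 or cut 2 (1.68 to 2.21, adjusted p 0.052 to 0.096) and with the muscle covariate (1.63, adjusted p = 0.106), and Hist1h3i without sham 2 (2.23, adjusted p = 0.0505). The near copies Hist2h3c1 and Hist2h3c2 together stood at 0.546 ± 0.060 CPM in sham and 0.731 ± 0.292 in cut.

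Most tested H4 members of the lowest sham levels rose several-fold, and those of higher level rose little or did not pass the test. Of 13 members 12 were tested, 8 were higher and 0 lower, with a median of 1.001. Hist1h4m, the lowest in sham, was not tested and is described below. Hist1h4b rose from 0.776, 0.833 and 0.534 CPM to 3.71, 6.24 and 3.56 (2.65 ± 0.34, adjusted p = 0.0051), and Hist1h4j by 2.45 ± 0.38. These 2 carry the GGTCCT stem, which no other member has, and are low in sham. Hist1h4f, with the GGCCCT stem, rose from 1.19, 1.51 and 1.95 CPM to 6.19, 9.28 and 6.38 (2.23 ± 0.28, adjusted p = 0.0048). Hist1h4a was not called without sham 1, 2 or 3 or cut 1 (1.49 to 1.90, adjusted p 0.053 to 0.060, beside 1.73 with all libraries), nor with the muscle covariate, which gave 1.07 (adjusted p = 0.110).

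The most abundant H4 genes had small fold changes. Hist1h4d stood at 22.1, 27.9 and 23.9 CPM in sham and 36.3, 46.5 and 40.2 in cut (0.73 ± 0.15, adjusted p = 0.014), and held 27.3% ± 2.47 of H4 in sham and 27.8% ± 0.56 in cut. It was not called without sham 1 or sham 3 (0.66 and 0.68, adjusted p = 0.059 and 0.067) or with the muscle covariate (0.64, adjusted p = 0.053). Hist2h4 stood at 13.3, 14.4 and 14.3 CPM in sham and 20.4, 23.9 and 21.04 in cut (0.64 ± 0.12, adjusted p = 0.012). It was not called without sham 1 or sham 2 (0.60 and 0.64, adjusted p = 0.0501 and 0.059) or with the muscle covariate (0.55, adjusted p = 0.056). Both genes' cut libraries lay above all sham libraries. Hist1h4h stood at 21.7, 23.2 and 23.1 CPM in sham and 22.01, 30.6 and 26.8 in cut, with overlap (0.22 ± 0.15, adjusted p = 0.259). Hist1h4c (0.30 ± 0.21) was not called either. Hist1h4i, lower in sham than these genes, stood at 1.76, 2.39 and 4.54 CPM in sham and 1.64, 1.755 and 3.05 in cut. Its groups overlapped and it was not called (-0.43 ± 0.43). Hist4h4, the only member on chromosome 6, stood at 3.35, 3.75 and 4.28 CPM in sham and 4.83, 6.58 and 5.37 in cut. Its groups did not overlap, but the test was not passed (0.56 ± 0.20, adjusted p = 0.068).

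Hist1h4m and Hist1h4n are near copies whose values in cut 2 lay on opposite sides of the other cut libraries. Hist1h4m had 0, 1 and 1 counts in sham and 0, 132 and 4 in cut. Hist1h4n had 59, 60 and 63 in sham and 212, 109 and 196 in cut. Cut 2 was thus high for Hist1h4m and low for Hist1h4n, and 88.1% and 80.7% of their 100-base windows are shared. Their sum was steady within groups, at 2.39 ± 0.07 CPM in sham and 7.23 ± 0.79 in cut, 3.03-fold. Alone, Hist1h4n was called (1.27 ± 0.27, adjusted p = 0.018) and lost that call without sham 1, 2 or 3 or cut 1 (1.12 to 1.28, adjusted p 0.061 to 0.078). In all, 28 of 67 members share 50% or more of their windows with other genes, and 18 of these were tested. Class totals keep reads together that were assigned to another copy of the same class.

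**Figure D3:**
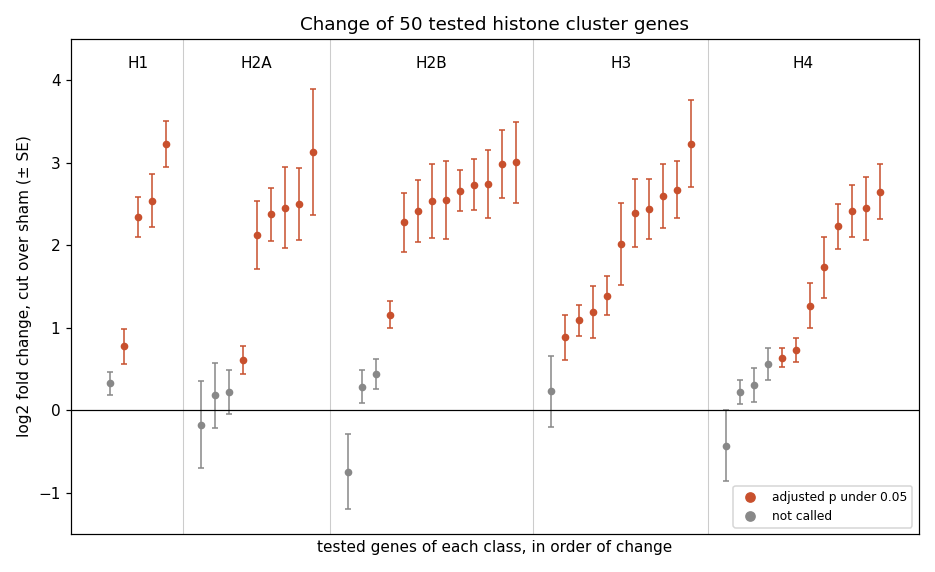
log2 fold change, cut over sham (y, points with SE bars), of the 50 tested genes in order of change within each class (x), red for adjusted p under 0.05 by edgeR's quasi-likelihood test and grey for the rest. Red points run from 0.61 to 3.23, and 3 grey points lie below 0.

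Levels compared per length, on the scale of the deposited FPKM, show which genes made up the sham pool. Hist1h1c stood first in sham at 67.7 ± 3.39 FPKM, and Hist1h4d next at 66.9 ± 8.32, a difference within their SD. Hist1h4h followed at 52.0 ± 1.58 FPKM, then Hist1h4c at 39.8 ± 5.93 and Hist2h4 at 36.4 ± 1.22, these last not apart beyond their SD. In cut tendon Hist1h4d led, at 111 ± 9.50 FPKM, before Hist1h1c at 84.7 ± 6.94. Of the 13 members at 5 FPKM or more in sham, 7 were called higher and 6 were not, and their median log2 fold change was 0.61. Of the 54 below, 37 were tested and 31 called higher, with a median of 2.42. The sham value enters both the level and the change, so this is a description and no test of a relation.

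Members of the Hist1 and Hist2 clusters differed in their range of change. The Hist1 cluster on chromosome 13 (GRCm38.p6, 21715711 to 23934913) holds 54 members, of which 40 were tested and 34 higher, with a median of 2.40. Its 3 stretches had medians of 2.43 (10 of 10 tested members higher, 21715711 to 21837530), 2.86 (3 of 4, 22035122 to 22043658) and 2.17 (21 of 26, 23531044 to 23934913). The Hist2 cluster on chromosome 3 (96219885 to 96270192) holds 10 members, of which 9 were tested and 4 higher. Its median was 0.23 and its highest value 1.16, from Hist2h2bb. No gene of the Hist3 pair on chromosome 11 was tested, and Hist3h2ba had 3, 6 and 5 counts in sham and 5, 4 and 15 in cut. The difference between clusters was not tested.

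Transcript models and promoters gave further descriptions of the tested members. Where the annotated transcript ended within 100 bases of the stem-loop, 15 of 18 tested members were higher with a median of 2.43. Where it ran further, 12 of 18 were higher with a median of 0.93, and where no stem-loop was found, 11 of 14 with a median of 2.38. These are annotated ends, and the count table does not say which end was used. The group without a stem-loop includes transcripts whose annotation may stop before it. Among H2A and H2B members with a promoter window, those with the octamer had a median of 2.41 (8 of 9 tested higher) and those without it 2.54 (8 of 11). Over all classes, members with TATAAA had a median of 2.38 (23 of 26 tested higher) and those without it 1.16 (12 of 19). For CCAAT the medians were 2.37 with it (30 of 37) and 1.75 without (5 of 8). For the H1 box they were 2.38 (5 of 6) and 2.28 (30 of 39). These differences were not tested. Among members with a promoter window there were 10 pairs of an H2A and an H2B gene that start within 500 bases of each other and run apart. Hist1h2bc (0.44, not called) and Hist2h2be (-0.74, not called) had no window, so pairs holding them were not searched. In 2 of the 10 pairs found both genes were tested, Hist1h2ak with Hist1h2bn (2.37 and 2.66) and Hist1h2ag with Hist1h2bj (3.13 and 2.74), and all 4 genes were higher.

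Genes that work with these histones were read from lists of general knowledge. Over all tested genes 20.4% were higher and 12.3% lower, the shares to set beside each list here. Of 21 tested genes of histone mRNA processing, 1 was higher and 1 lower, with a median of 0.15. Eri1, the exonuclease that trims histone mRNA ends, rose by 0.43 ± 0.12 (edgeR adjusted p = 0.038), and Cpsf1, a subunit of the cleavage complex, fell by 0.47 ± 0.10 (adjusted p = 0.019). Neither call was stable: Eri1 was lost on omitting any library but cut 3 (0.34 to 0.46, adjusted p 0.081 to 0.154), and Cpsf1 on omitting sham 1, sham 2, cut 1 or cut 2 (-0.48 to -0.45, adjusted p 0.056 to 0.083). Slbp itself stood at 7.40, 7.31 and 7.64 CPM in sham and 9.54, 7.56 and 8.46 in cut, and the difference of 0.19 ± 0.15 did not pass the test. Of 20 histone chaperones, 0 were higher and 1 lower (3 higher at an unadjusted p under 0.05, and 1 higher by DESeq2), with a median of 0.12. Ubn2, a subunit of the HIRA complex, fell by 0.57 ± 0.13 (adjusted p = 0.023), a call lost on omitting any library but cut 3 (-0.63 to -0.49, adjusted p 0.054 to 0.081). Chaf1b, a subunit of the CAF-1 complex that deposits new H3 and H4 at replication forks, stood at 1.15 ± 0.38 and did not pass the test (adjusted p = 0.060). It did with the replicate block (1.18, adjusted p = 0.034), by DESeq2 (1.16, adjusted p = 0.029) and without cut 3 (1.36, adjusted p = 0.016).

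Replication-independent histones are made outside S phase as well. Of 11 tested, 7 were higher and 0 lower (0 lower at an unadjusted p under 0.05 and by DESeq2), with a median of 0.66. Among all tested genes 20.4% were higher and 12.3% lower. Cenpa, the H3 variant of centromeres, rose from 1.96, 1.36 and 1.98 CPM to 5.58, 6.28 and 4.19 (1.59 ± 0.25, adjusted p = 0.0078). H1f0, the linker histone of resting and differentiated cells, rose from 82.9, 85.4 and 85.7 CPM to 118.9, 141.8 and 141.7 (0.66 ± 0.13, adjusted p = 0.013). Neither gene's groups overlapped. H1f0 was not called without sham 1, 2 or 3 (0.64 to 0.65, adjusted p 0.058 to 0.071), and the count of higher genes in this list was 1, 1 and 2 without those libraries and 3 without cut 1 or cut 2.

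Of 32 genes of S phase and the cell cycle, 16 were higher and 0 lower (0 lower at an unadjusted p under 0.05 and by DESeq2), with a median of 0.71. The shares of all tested genes were 20.4% higher and 12.3% lower. Mki67, a marker of cycling cells, rose from 5.80, 5.68 and 5.92 CPM to 40.7, 60.1 and 34.96 (2.96 ± 0.23, adjusted p = 0.0027). Top2a, which untangles replicated DNA, rose from 2.57, 3.29 and 3.51 CPM to 22.6, 31.9 and 18.6 (2.96 ± 0.25, adjusted p = 0.0031), and shares exon sequence with another annotated gene on the same strand. Cut 2 was the highest cut library for both. Summed, the S phase list stood at 193.7, 197.3 and 189.2 CPM in sham and 337.5, 418.2 and 317.5 in cut. Without sham 1, 2 or 3 or cut 2, the count of higher genes was 9, 6, 8 and 10.

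**Figure D4:**
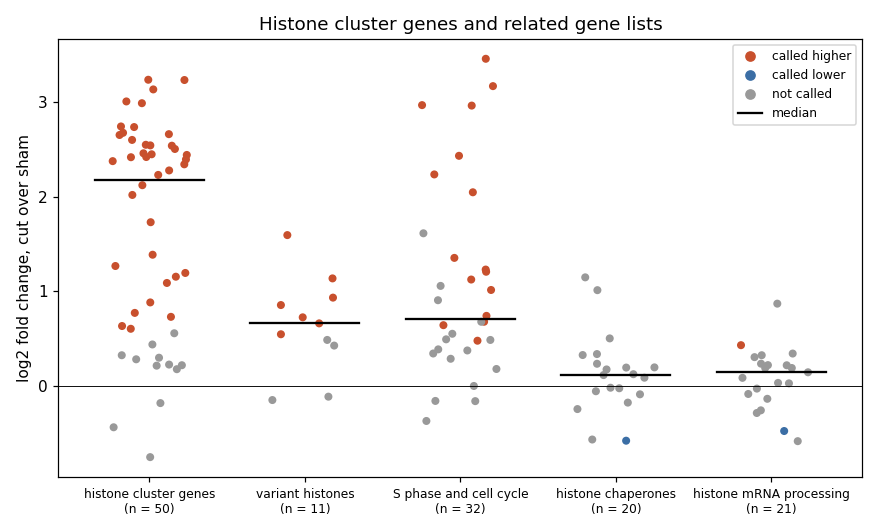
log2 fold change, cut over sham (y), of each tested gene in 5 lists (x), a point per gene, red for called higher, blue for called lower and grey for the rest, with the median as a bar. The median of histone cluster genes is 2.17, beside 0.66 for variant histones, 0.71 for S phase and cell cycle genes, 0.12 for chaperones and 0.15 for histone mRNA processing.

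Markers of cell types also moved with the groups. All 10 tenocyte markers were present in every library and 5 were higher in cut. Of macrophage markers, 9 of 9 were higher, summing to 245.4 to 319.9 CPM in sham and 631.9 to 855.1 in cut. Of chondrocyte markers, 5 of 5 tested were higher (43.7 to 73.9 CPM in sham, 1900 to 9269 in cut). Of T lymphocyte markers 3 of 6 tested were higher (1.99 to 2.33 CPM in sham, 10.8 to 17.2 in cut), and Cd3e was above 0 in all libraries. The single B lymphocyte marker tested was higher, with a list sum of at most 3.49 CPM. All 8 adipocyte markers, 3 of 7 endothelial markers and 1 of 7 tested erythroid markers were lower. At an unadjusted p under 0.05 by edgeR, 7 endothelial and 5 erythroid markers were lower, and by DESeq2 5 and 5. Over all tested genes edgeR called 20.4% higher and 12.3% lower, so 1 of 7 is near the share of all genes. Of neutrophil and keratinocyte markers 0 of 4 tested were called in each list (1 and 0 lower at an unadjusted p under 0.05 and by DESeq2). In bulk tissue a change in the number of cells of a type and a change in RNA per cell cannot be told apart, and the part of these cell types in the histone values was not tested.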

How the data were processed

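Total RNA was extracted with mirVana reagents and stranded libraries followed ribosomal RNA depletion (TruSeq, Ribo-Zero Gold), per the labels' protocols. The submitters' processing notes name Trimmomatic, HISAT2 and the GRCm38.p6 build without versions. How reads were counted, and whether strand was used, is not given in the sources used here. Overlapping genes may therefore not be told apart. In GENCODE vM21 exons of 21 members overlap another gene on the other strand and of 7 on the same strand, as do those of Slbp, Cpsf1 and H1f0 (other strand) and of Top2a and Ubn2 (same strand). The table deposited by the authors held whole read counts per gene. The FPKM deposited by the authors implied whole gene lengths (tolerance 0.01 bases) in 100% of genes counted in every library, and served for levels per length. Library totals were 23916839, 26176650 and 27140226 counts (sham) and 28410231, 30715022 and 31346730 counts (cut), so that 1 count was 0.0322 to 0.0409 CPM. Floors cover counting error only, and a fold over a floor leaves out the error of the cut counts.

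Counts were tested with edgeR 4.0.16 in R 4.3.3: filterByExpr (14561 of 21878 genes kept), TMM scaling, the quasi-likelihood test over all 6 libraries and Benjamini-Hochberg adjustment over all tested genes, threshold 0.05. The common biological coefficient of variation was 0.296. CPM are TMM-normalized, fold changes are cut over sham, and SE is the absolute log2 fold change over the square root of F. DESeq2 1.42.0 served as an alternative, and the code was tested on simulated data. Same-numbered sham and cut libraries deviated together from their group means over all tested genes (r = 0.26, 0.13 and 0.41 for numbers 1 to 3, against -0.33 to 0.24 for unequal numbers, with cut 2 nearer to sham 1, at 0.24, than to sham 2). Each same-numbered pair was above 0.1, but so were sham 1 with cut 2 (0.24) and sham 2 with cut 1 (0.11), and no label gives a pairing. The number was treated as pairing the libraries in a fit with a replicate block, as an alternative only. Tables were made with Python 3.11.15 and pandas 2.3.3.

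Positions and promoters are from RefSeq (GRCm38.p6) by gene identifier, 67 of 67 matched. Windows of 100 bases were compared over GENCODE vM21 transcripts on both strands. The members and lists were chosen with earlier results of these data known. Genes named by rule were every H1 gene, every gene of the Hist2, Hist3 and Hist4 clusters, the testis genes Hist1h1t, Hist1h2aa and Hist1h2ba, the 3 members of highest level in each other class, in each class the called members ranked 1 and 2 from the top and from the bottom by change, and the 2 genes with the smallest p in each list, with the first in the other direction. Members with no count are counted and not named in the results. All other genes named were chosen after their values were seen. A list of 14 non-polyadenylated RNAs could not be analysed, as 0 of them were among the genes of the count table. The capture of RNA without a poly(A) tail was therefore not checked with that list.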

Additional observations from a re-analysis of the deposited data

How the results depend on the processing

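Of the 38 histone cluster genes called higher, 22 were called in each of 12 alternatives: edgeR with DESeq2 size factors, the DESeq2 Wald test, no filter on low counts, at least 10 counts in 3 libraries of a group, a replicate block, a muscle covariate and the omission of each library. Those that remained numbered 37, 38, 36, 38, 36 and 27 in the first 6, and 26 to 38 without a single library. Hist2h3b was called in 3 of the 12, Hist1h3d and Hist2h2ac in 5 and Hist1h1e in 6. The pairing of numbers, as a replicate block, ended the calls on Hist1h3d and Hist2h3b and gave those on Hist1h2bc and Chaf1b, with 3161 genes higher and 2522 lower in the whole table. It changed no other call on a histone cluster gene.

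Over all genes, 2968 were higher and 1789 lower. The muscle covariate gave 1582 and 750, and DESeq2 called 2753 lower. Leaving out 1 library gave 1091 (without sham 2) to 4212 (without cut 3) higher and 436 to 4392 lower, the same libraries setting the extremes. Histone cluster genes called lower numbered 0 to 1 without a library, the 1 being Hist2h2be without cut 3. S phase genes called higher were 16 of 32, 8 with the muscle covariate and 6 to 20 without a library. Variant histones called higher were 7 of 11, 3 with the muscle covariate and 1 to 8 without a library. Histone mRNA processing genes were 1 higher and 1 lower, with 0 to 3 in each direction without a library, 0 higher with the covariate or no filter, and 2 lower with DESeq2 size factors, DESeq2 or the block. Chaperones were 0 higher and 1 lower, with 0 to 5 and 0 to 3 without a library, the highest counts without cut 3, and 0 lower with the covariate. The median change of tested histone genes was 2.17, and 1.80 with the muscle covariate. Values near 0 changed sign: with a library left out Hist2h2aa1 ran from -0.68 to 0.085 (positive without sham 2, cut 1 or cut 3), Hist2h2aa2 from -0.055 to 0.32 (negative without sham 2 or cut 2) and Hist2h3c2 from -0.20 to 0.46 (negative without cut 2). With the muscle covariate Hist2h2aa2 was at -0.068, Hist2h3c2 at -0.27 and Hist2h2be at 0.17. The causes were not tested. Of all values recomputed for genes named by rule, 420 kept direction and side of the threshold, 57 lost a call, 5 gained one and 9 changed sign. Class totals already sum near-identical copies, so that alternative is the value reported.

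The design has 3 libraries a group, with cut 3 near sham in muscle transcripts, and 17 histone cluster genes fell below edgeR's count filter. DESeq2 tested 59 members and called 40 higher, adding Hist1h2ae and Hist1h2ah, and edgeR with no filter tested 65 and called 37, adding Hist1h2ah. Near-identical copies limit single genes more than class totals.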
